A study of Mus musculus with 6 samples.

Results

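Netrin-1, its receptors and the Robo receptors were followed in the whole brain of the mouse embryo at day 16.5 (E16.5). The set was 10 genes: Ntn1, Dcc, Neo1, Unc5a, Unc5b, Unc5c, Unc5d, Robo1, Robo2 and Robo3. The genes were listed by name, with earlier results of these data known. All 10 were measured, out of 19938 genes that had an array row of their own. They held 11 rows, because Unc5d was read by 2 rows and each of the other 9 genes by 1.

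The 3 Tdp2Δ1-3 embryos carried a Tdp2 allele whose name gives exons 1 to 3 as deleted, and which the series title calls a knock-out. Tdp2 is the gene of the phosphodiesterase that frees trapped topoisomerase II from DNA ends. The other 3 embryos were wild type. The labels name no Cre or transgene, strain or sex, and list no treatment. RNA of the entire brain, from olfactory bulb to brain stem, was read on 1 Affymetrix Mouse Gene 1.0 ST array per brain. The titles call the samples of a genotype biological replicates. With a whole brain as the sample, fewer cells of a type and less RNA per cell cannot be told apart in any result.

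Netrin-1 is a secreted guidance cue that steers growing axons and migrating neurons. Dcc is its attractant receptor, neogenin (Neo1) is the close relative of Dcc, and the UNC5 receptors turn the response to netrin into repulsion, alone or together with Dcc. Robo receptors are best known for reading Slit proteins, which drive axons away from the midline, and Robo3 is needed for hindbrain and spinal commissural axons to cross it. These families are in use in the embryonic brain while the commissures, the corticofugal tracts and the precerebellar streams form.

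From the promoter table of RefSeq (build GRCm38.p6), promoters of 7 of the 10 genes were examined: Neo1, Unc5a, Unc5b, Unc5c, Robo1, Robo2 and Robo3. No promoter of Ntn1, Dcc or Unc5d was examined, which does not show that the table lacks them. The UNC5 promoters are shown as a family. Of the genes that passed the test below, only Unc5a is among the promoters examined, so promoters cannot be compared by test result. Each is the 250 bases before the annotated start, 5′ to 3′ on the gene's strand, with matches to GGGCGG on either strand (the GC box) in capitals. Unc5a lies at chr13:54949161-54949410 on the plus strand, Unc5b at chr10:60831582-60831831 on the minus strand and Unc5c at chr3:141465314-141465563 on the plus strand.
Unc5a: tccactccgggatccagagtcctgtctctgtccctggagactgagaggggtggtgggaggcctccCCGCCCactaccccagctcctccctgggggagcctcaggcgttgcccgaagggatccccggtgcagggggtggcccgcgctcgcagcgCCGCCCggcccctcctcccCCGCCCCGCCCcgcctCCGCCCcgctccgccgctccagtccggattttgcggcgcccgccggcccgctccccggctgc
Unc5b: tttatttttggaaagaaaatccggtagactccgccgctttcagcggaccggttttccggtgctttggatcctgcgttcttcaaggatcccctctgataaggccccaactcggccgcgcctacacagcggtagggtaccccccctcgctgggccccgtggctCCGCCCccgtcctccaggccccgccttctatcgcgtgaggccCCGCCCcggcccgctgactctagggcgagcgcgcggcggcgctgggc
Unc5c: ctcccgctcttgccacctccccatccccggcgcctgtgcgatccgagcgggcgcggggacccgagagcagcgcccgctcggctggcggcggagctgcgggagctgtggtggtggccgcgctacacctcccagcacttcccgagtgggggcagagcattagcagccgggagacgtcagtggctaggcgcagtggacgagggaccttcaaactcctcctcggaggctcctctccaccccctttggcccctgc
Unc5a held 5 GC boxes, of which a pair overlap, against 2 in Unc5b and 0 in Unc5c. Of 32851 promoters of this length in the table, 32.7% held at least 1. GC content was 76.8% for Unc5a, 66.8% for Unc5b and 71.2% for Unc5c, against a median of 52.4% over all promoters. The E-box CANNTG (on either strand), which 66.2% of all promoters held, was not in these windows, nor was TATAAA on either strand, which 12.4% held. Of the other promoters examined, all of genes that did not pass, that of Robo3 held 3 GC boxes and that of Neo1 held 1. Those of Robo1 and Robo2 held 0, and GC content was 83.2% for Neo1. These matches describe letters only.

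The array values are log2 values centred on each row's median over the 6 arrays, so they compare arrays within a row and say nothing of how strongly one gene is expressed against another. For the same reason the tissue could not be checked by the level of brain markers. Tdp2 itself averaged -0.96 ± 0.080 in the Tdp2Δ1-3 brains and 1.11 ± 0.22 in the wild-type brains (SD, n = 3 each), and which of its probes lie in the deleted part was not checked. Of 23410 rows tested, 548 were higher and 967 lower in the mutants at a limma adjusted p under 0.05. The arrays were not alike in sex: Xist was 6.27 in Tdp2Δ1-3 replicate 3 and 1.17 in Tdp2Δ1-3 replicate 2, and between -0.085 and 0.0016 in the other 4 arrays. The Y-linked gene Eif2s3y was -4.32 in Tdp2Δ1-3 replicate 3 and between -0.042 and 0.20 elsewhere. The part of sex in the differences below was not tested, and the values without that brain are given with each gene or at the end of the gene-by-gene account.

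Within the receptor set, Dcc was higher in the Tdp2Δ1-3 brains, and Unc5a and 1 of the 2 Unc5d rows were lower. The attractant netrin receptor and these 2 rows of its repellent counterparts differed in opposite directions. Values below 0 were not limited to repellent receptors: they were found in 9 of the 11 rows, Neo1 among them, against 43.2% of all rows. Dcc was 1.24-fold higher and Unc5a 1.22-fold lower, while the Unc5d row fell by 16.3%. The other Unc5d row did not pass. Each of these calls was kept in only 1 of the 6 fits with 1 array left out. Over the 11 rows, 1 passed as higher, 2 passed as lower and 8 did not pass, at an adjusted p under 0.05 over all 23410 rows. The background of rows that passed was 2.34% higher and 4.13% lower, 6.47% in all. The set was chosen with earlier results of these data known, so its counts beside the background are a description. The differences were small, and no row reached the 1.5-fold limit of the series text, which 0.641% of all rows reached together with the p limit. By limma 6 of the 11 rows had an unadjusted p under 0.05, against 21.8% of all rows.

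**Figure D1:**
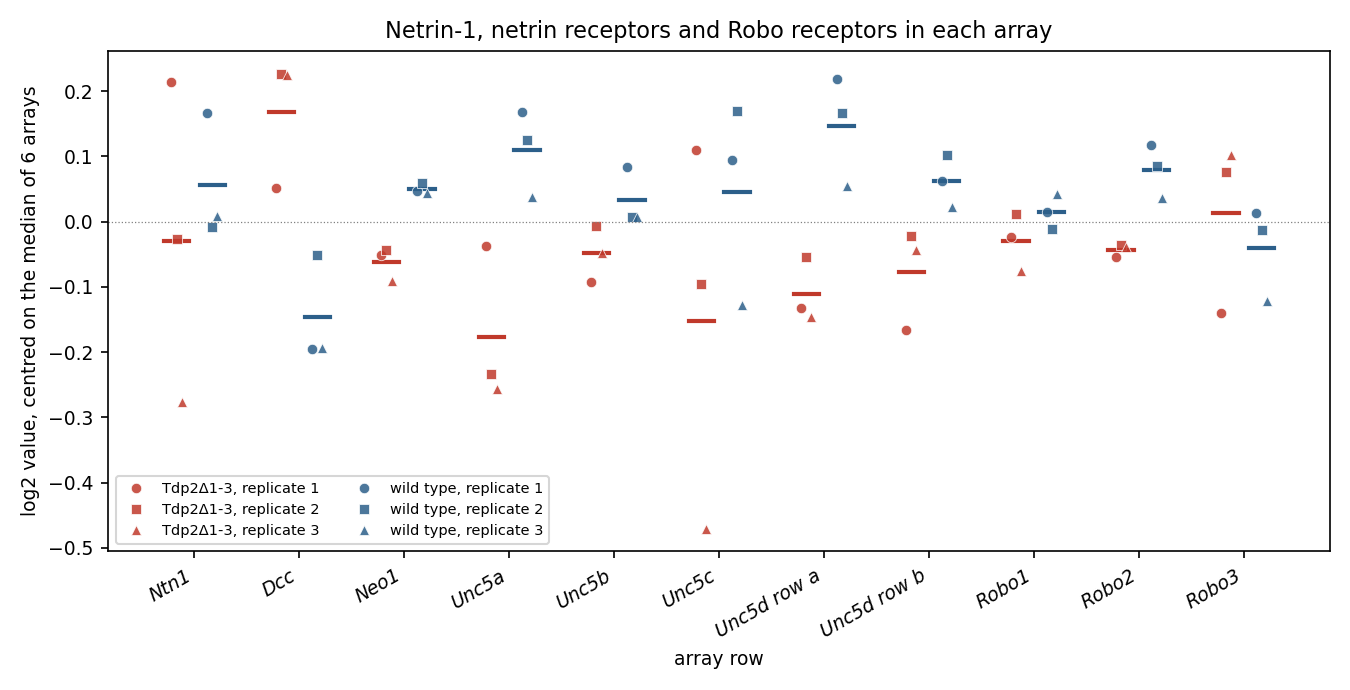
Centred log2 values (vertical axis) of the 11 array rows (horizontal axis) in 3 Tdp2Δ1-3 arrays (red, left) and 3 wild-type arrays (blue, right), with the symbol giving the replicate number and the bar the group mean. Every mutant value of Dcc lies above every wild-type value, every mutant value of Unc5a and of both Unc5d rows lies below, and Ntn1, Unc5c, Robo1 and Robo3 overlap.

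Ntn1, the ligand, did not differ beyond the spread between brains. Its values were 0.21, -0.027 and -0.28 in the Tdp2Δ1-3 brains, against 0.17, -0.0079 and 0.0079 in the wild-type brains. The mutants held both the highest and the lowest value, so the groups overlapped. Differences are given as mutant minus wild type with limma's standard error (SE) over 3 brains of each genotype. That of Ntn1 was -0.085 ± 0.11, with a 95% interval of -0.35 to 0.18 (limma adjusted p = 0.75). Without Tdp2Δ1-3 replicate 3 the value was 0.038, with the opposite sign. Floor plate genes, which mark a ventral midline site where netrin-1 is made, gave no call. Of 8 measured, 0 passed by limma and 0 had an unadjusted p under 0.05. A link of these genes to the values of Ntn1 was not tested. The mean of the floor plate list ran from -0.15 to 0.077 in the mutants and from -0.062 to 0.036 in the wild types, also with Tdp2Δ1-3 replicate 1 highest and replicate 3 lowest.

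Dcc, the attractant receptor, rose. Its values were 0.051, 0.23 and 0.23 in the Tdp2Δ1-3 brains and -0.20, -0.051 and -0.19 in the wild-type brains. The groups did not overlap, and the closest pair was Tdp2Δ1-3 replicate 1 and wild-type replicate 2. The difference was 0.31 ± 0.066 (SE), 1.24-fold higher, with a 95% interval of 0.16 to 0.47 (limma adjusted p = 0.032). The rise lost its call with 5 of the 6 arrays left out in turn, at adjusted p between 0.061 and 0.14, and kept it without Tdp2Δ1-3 replicate 1 (adjusted p = 0.012). The difference itself stayed between 0.28 and 0.37 in these fits, and was 0.29 without Tdp2Δ1-3 replicate 3 (adjusted p = 0.11), the brain that stood apart in sex-linked genes.

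Neo1, which also serves as the receptor of repulsive guidance molecules, had values of -0.051, -0.043 and -0.092 in the mutants and 0.046, 0.059 and 0.043 in the wild types. The groups were tight and did not overlap, but the difference of -0.11 ± 0.040 did not pass (95% interval -0.20 to -0.019, limma adjusted p = 0.15). Dcc and its close relative had differences of opposite sign, with intervals that did not meet.

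Among the repellent receptors, Unc5a fell. Its values were -0.038, -0.23 and -0.26 in the Tdp2Δ1-3 brains, against 0.17, 0.12 and 0.038 in the wild-type brains. Every mutant lay below every wild type, with Tdp2Δ1-3 replicate 1 and wild-type replicate 3 nearest to each other. The difference was -0.29 ± 0.068 (SE), 1.22-fold lower (95% interval -0.44 to -0.13, limma adjusted p = 0.048). This call stood close to the limit: it was lost with 5 of the 6 arrays left out in turn (adjusted p 0.061 to 0.19), and the adjusted p was 0.011 without Tdp2Δ1-3 replicate 1. Without Tdp2Δ1-3 replicate 3 the difference was -0.25 (adjusted p = 0.15). Unc5a lies on chromosome 13, as Tdp2 does, with 201 protein-coding genes between them in GRCm38.p6.

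Unc5d, a receptor that also binds Flrt proteins on migrating cortical neurons, was read by 2 rows, called a and b here. Row a, annotated with 1 accession, had values of -0.13, -0.055 and -0.15 in the mutants and 0.22, 0.17 and 0.055 in the wild types. Row b, annotated with 6 accessions, had -0.17, -0.022 and -0.043 in the mutants and 0.062, 0.10 and 0.022 in the wild types. In both rows the groups were separate and the mutants lower. Row a fell by 0.26 ± 0.055 (SE) (95% interval -0.38 to -0.13, limma adjusted p = 0.035), and row b had a difference of -0.14 ± 0.052 that did not pass (95% interval -0.26 to -0.018, limma adjusted p = 0.17). The intervals of the rows overlap, and which transcripts of Unc5d each row reads is not given in the sources used here. Row a lost its call with 5 of the 6 arrays left out in turn (adjusted p 0.054 to 0.13) and kept it without wild-type replicate 3 (0.031). Without Tdp2Δ1-3 replicate 3 its difference was -0.24 (adjusted p = 0.12).

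The other UNC5 receptors did not pass. Unc5b, which is also an endothelial receptor, had values of -0.092, -0.0064 and -0.048 in the mutants and 0.084, 0.0070 and 0.0064 in the wild types, a difference of -0.081 ± 0.046 (95% interval -0.19 to 0.025, limma adjusted p = 0.37). The Unc5b groups did not overlap, though Tdp2Δ1-3 replicate 2 and wild-type replicates 2 and 3 nearly touched. Unc5c, whose loss in mice deforms the cerebellum, had the widest spread of the set. Its values were 0.11, -0.095 and -0.47 in the mutants and 0.095, 0.17 and -0.13 in the wild types. The lowest Unc5c value of each genotype was in replicate 3, and the groups overlapped. The difference of -0.20 ± 0.14 had a 95% interval of -0.52 to 0.13 (limma adjusted p = 0.49) and was -0.038 without Tdp2Δ1-3 replicate 3. A fall of Unc5c as large as that of Unc5a is inside this interval, as is no fall.

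The Robo receptors gave no call by limma, 0 of 3, and Robo2 alone had an unadjusted p under 0.05. Robo1, a Slit receptor of forebrain tracts, had values of -0.024, 0.011 and -0.075 in the Tdp2Δ1-3 brains and 0.015, -0.011 and 0.042 in the wild-type brains. The groups overlapped and the difference was -0.044 ± 0.044 (95% interval -0.15 to 0.057, limma adjusted p = 0.64). Robo2, the Slit receptor that acts with Robo1, had -0.055, -0.036 and -0.039 in the mutants and 0.12, 0.085 and 0.036 in the wild types. Here the groups did not overlap, with a difference of -0.12 ± 0.042 (95% interval -0.22 to -0.025, limma adjusted p = 0.13). Robo3, which in mammals binds Nell2 rather than Slits, had -0.14, 0.077 and 0.10 in the mutants and 0.012, -0.012 and -0.12 in the wild types. Tdp2Δ1-3 replicate 1 was the lowest of all 6 and the other mutants the highest, and the difference was 0.054 ± 0.073 (95% interval -0.11 to 0.22, limma adjusted p = 0.75).

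**Figure D2:**
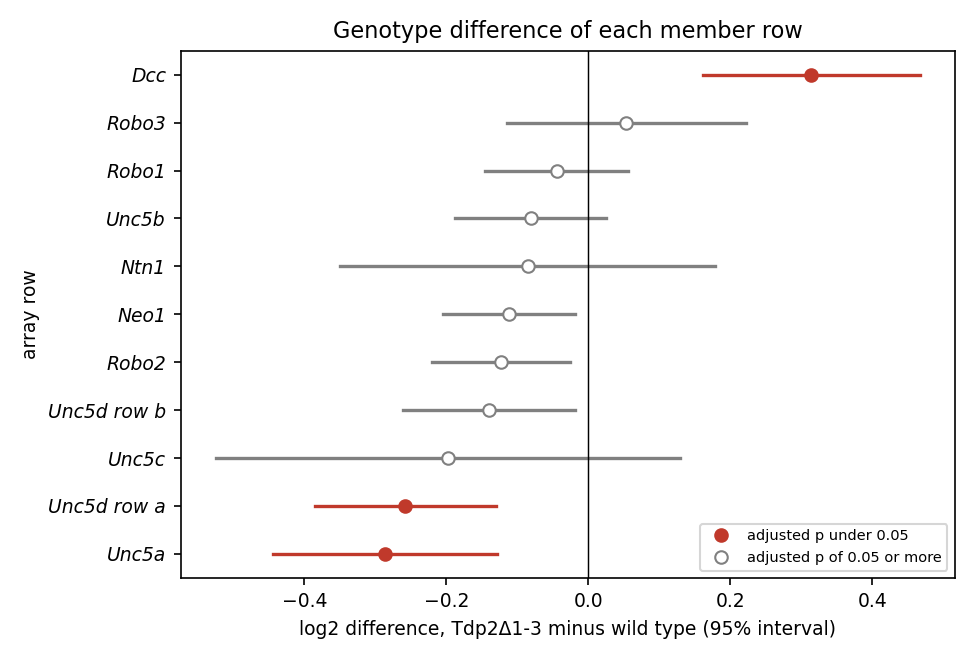
Log2 difference, Tdp2Δ1-3 minus wild type (horizontal axis), of each of the 11 rows (vertical axis), with limma's 95% interval as a bar. Dcc at 0.31 is alone on the right among the filled points (adjusted p under 0.05), Unc5a at -0.29 and Unc5d row a at -0.26 are the filled points on the left, and the other 8 rows lie between.

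Without Tdp2Δ1-3 replicate 3, the brain with high Xist, the remaining rows kept their sign and gave no call by limma. Neo1 then had a difference of -0.097, Unc5b of -0.082, Unc5d row b of -0.16 and Robo2 of -0.12 (adjusted p = 0.37, 0.56, 0.26 and 0.28). Robo1 and Robo3 came nearer to 0, at -0.022 and 0.0092 (adjusted p = 0.90 and 0.98).

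Set in order, the differences ran Dcc 0.31, Robo3 0.054, Robo1 -0.044, Unc5b -0.081, Ntn1 -0.085, Neo1 -0.11, Robo2 -0.12, Unc5d row b -0.14, Unc5c -0.20, Unc5d row a -0.26 and Unc5a -0.29. Between any 2 neighbours in this order the 95% intervals overlapped. The difference between neighbours was not tested. Values below 0 were found in 9 of the 11 rows, against 43.2% of all rows, and the median was -0.11, against 0.013 over all rows. The groups did not overlap in 7 of the 11 rows, 1 higher and 6 lower. Over all rows the groups did not overlap in 25.7%, with 13.1% higher and 12.6% lower. These counts too describe a set chosen with earlier results known.

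Beyond the receptors, 53 further genes of the netrin and Slit pathways were listed, also with earlier results known, and 50 were measured. Of these 50, 9 fell and 0 rose at a limma adjusted p under 0.05, with 20 lower and 2 higher at an unadjusted p under 0.05 and a median of -0.080. At the adjusted p the background was 4.13% of rows lower and 2.34% higher. At an unadjusted limma p under 0.05 it was 2770 of 23410 rows lower and 2345 higher, 21.8% of rows in all. The 9 were Nell1, Nell2, Dscam, Dscaml1, Adgrl3, Ablim1, Srgap1, Trim9 and Trim67. The count was 1 without Tdp2Δ1-3 replicate 2, 2 without wild-type replicate 2, 3 without Tdp2Δ1-3 replicate 3 or wild-type replicate 1 and 15 without Tdp2Δ1-3 replicate 1.

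Of the Slits and other Robo ligands, 2 of 5 fell. Nell1, a secreted relative of Nell2, had values of -0.24, -0.36 and -0.36 in the Tdp2Δ1-3 brains and 0.32, 0.38 and 0.24 in the wild-type brains. It fell by 0.63 ± 0.056 (SE), 1.55-fold (limma adjusted p = 0.0035), and kept its call with any 1 array left out. Nell2, the secreted ligand of Robo3, fell by 0.27 ± 0.046, with values of -0.093, -0.14 and -0.20 in the mutants against 0.16, 0.12 and 0.093 in the wild types (limma adjusted p = 0.018). The Slit genes did not pass: Slit1 had a difference of -0.027, Slit2 of 0.050 and Slit3 of -0.31 (limma adjusted p = 0.83, 0.79 and 0.094). The ligand of Robo3 was lower and Robo3 itself gave no call. Nell2 lost its call without Tdp2Δ1-3 replicate 2 or 3 or wild-type replicate 1 or 2 (adjusted p 0.053 to 0.086).

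Of 9 other ligands of netrin receptors, none passed by limma, and 2 were higher and 3 lower at an unadjusted p under 0.05. Flrt2, a membrane ligand of Unc5d, had the smallest p, at -0.17 ± 0.042 (limma adjusted p = 0.052). Ntn3, a further netrin, had -0.28 ± 0.073, with every mutant below every wild type (limma adjusted p = 0.063). Flrt3, a relative of Flrt2, had 0.21 ± 0.075 and Ntn4, a netrin of basement membranes, 0.18 ± 0.060 (limma adjusted p = 0.14 and 0.13). Rgma, the repulsive guidance ligand of Neo1, had -0.27 ± 0.091 (limma adjusted p = 0.13). Draxin, a secreted repellent that binds Dcc, had 0.099 ± 0.059 (limma adjusted p = 0.39).

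Among 7 other receptors and coreceptors, 3 fell. Dscam, an adhesion molecule described as a further netrin receptor, fell by 0.27 ± 0.058, and its relative Dscaml1 fell by 0.26 ± 0.044 (limma adjusted p = 0.035 and 0.015). Adgrl3, a latrophilin that binds Flrt3 and UNC5 receptors, fell by 0.34 ± 0.066 (limma adjusted p = 0.025). In all 3 genes every mutant value lay below every wild-type value. With 1 array left out in turn, the call was kept in 1 of 6 fits for Dscam, 2 for Adgrl3 and 4 for Dscaml1. Robo4, the endothelial Robo, had a difference of -0.0028 ± 0.092 (limma adjusted p = 0.99).

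Of the signalling genes behind the receptors, none of 12 adaptors, kinases and exchange factors passed by limma, with 3 lower and 0 higher at an unadjusted p under 0.05. Pitpna, a phosphatidylinositol transfer protein that binds Dcc, had the smallest p, at -0.17 ± 0.053 (limma adjusted p = 0.11). The Rac exchange factor Trio had -0.13 ± 0.043 and the kinase Fyn -0.18 ± 0.071 (limma adjusted p = 0.12 and 0.19). Of 8 GTPases and effectors, Ablim1, an actin-binding LIM protein, fell by 0.47 ± 0.056, 1.39-fold (limma adjusted p = 0.0066). Ablim1 kept its call in 5 of 6 fits with 1 array left out. Rac1 and Cdc42 had differences of -0.096 and -0.030 (limma adjusted p = 0.43 and 0.84).

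Of 4 GTPase-activating proteins of the Robo pathway, Srgap1 fell by 0.27 ± 0.049 (limma adjusted p = 0.019) and Srgap2 had -0.22 ± 0.055 (limma adjusted p = 0.058). Of 5 genes of receptor turnover and cleavage, Trim9 and Trim67, related ubiquitin ligases that bind Dcc, fell by 0.40 ± 0.071 and 0.38 ± 0.079 (limma adjusted p = 0.019 and 0.030). Trim9 had values of -0.090, -0.27 and -0.31 in the mutants and 0.26, 0.19 and 0.090 in the wild types. Trim67 had -0.073, -0.21 and -0.32 in the mutants and 0.30, 0.17 and 0.073 in the wild types. Trim9 and Trim67 were lower and Dcc higher in the same genotype, where 967 of the 23410 rows were called lower. A link of Trim9 or Trim67 to the difference of Dcc was not tested. Srgap1, Trim9 and Trim67 each kept the call in only 2 of 6 fits with 1 array left out.

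**Figure D3:**
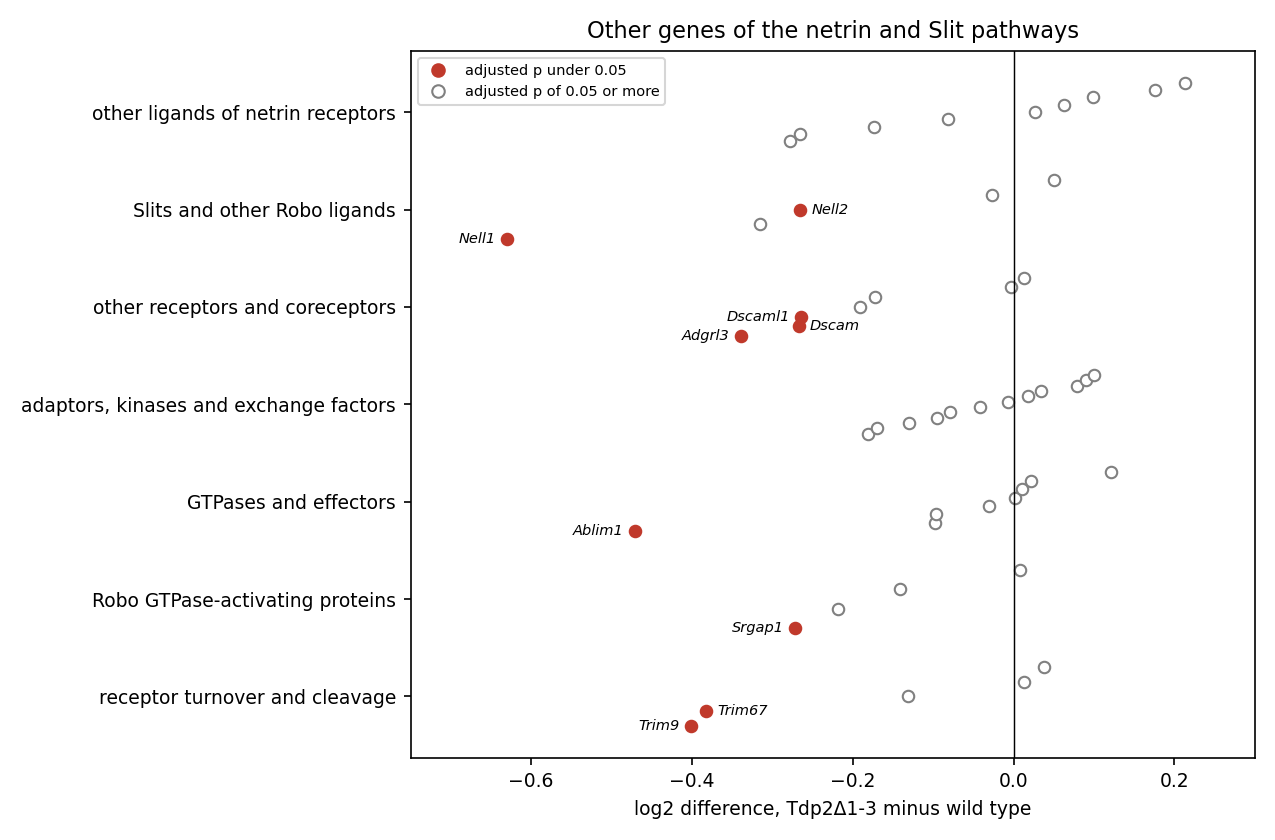
Log2 difference, Tdp2Δ1-3 minus wild type (horizontal axis), of 50 further netrin and Slit pathway genes grouped by role (vertical axis), 1 point per gene. The 9 filled and named points (adjusted p under 0.05) all lie below 0, from Nell1 at -0.63 to Dscaml1 at -0.26, and no gene above 0 is filled.

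Markers of several cell classes also differed between the genotypes. These lists were chosen with earlier results of these data known, so their counts are a description. Over all rows, 2.34% were called higher and 4.13% lower at a limma adjusted p under 0.05. Of 11 cycling-cell genes measured, 11 rose and 0 fell. Their mean centred value ran from 0.21 to 0.37 in the Tdp2Δ1-3 brains and from -0.43 to -0.20 in the wild-type brains. Of 8 intermediate progenitor genes, 7 rose, with means of 0.17 to 0.26 in the mutants and -0.31 to -0.12 in the wild types. Of 12 genes of mature neurons and synapses, 11 fell, with means of -0.41 to -0.17 in the mutants and 0.19 to 0.31 in the wild types. Dcc was high in the same brains as the cycling-cell and progenitor genes. Unc5a and Unc5d were low in the same brains as the mature neuron genes. With rows centred on their median, every row whose groups do not overlap, 25.7% of all rows, splits by genotype in this way. The red-cell means had the signs of Dcc, and the astrocyte and endothelial means those of Unc5a. The part of cell classes in the differences of Dcc, Unc5a and Unc5d was not tested. Without Tdp2Δ1-3 replicate 2 the calls were 2, 2 and 1 in the cycling-cell, progenitor and mature neuron lists. Without wild-type replicate 2, 3 intermediate progenitor and 4 mature neuron genes passed, and without wild-type replicate 1, 4 and 7 did.

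Other marker lists were counted in the same way. A whole-brain value does not show in which cells a gene is expressed. Of 10 genes listed for dorsal hindbrain and commissural neurons, 3 rose and 7 did not pass. Barhl2 rose by 0.44 ± 0.090, Lhx9 by 0.60 ± 0.13 and Lhx2 by 0.35 ± 0.081 (limma adjusted p = 0.031, 0.034 and 0.042). The other 7 differences ran from -0.25 for Pax2 to 0.21 for Olig3, with Atoh1 at 0.056 (limma adjusted p = 0.68, 0.14 and 0.89). None of the 10 passed without Tdp2Δ1-3 replicate 2 or 3 or wild-type replicate 2. The means of that list ran from -0.065 to 0.19 in the mutants and from -0.19 to -0.031 in the wild types, with the highest value in Tdp2Δ1-3 replicate 1, where Robo3 was lowest. Of 10 endothelial genes only Cldn5 changed (-0.35 ± 0.068, limma adjusted p = 0.024), with means of -0.088 to -0.011 in the mutants and 0.0097 to 0.060 in the wild types. That call was lost with 4 of the 6 arrays left out in turn. Of 10 astrocyte genes 5 fell (0 to 6 with 1 array left out, 0 without Tdp2Δ1-3 replicate 2 or wild-type replicate 2 and 1 without Tdp2Δ1-3 replicate 3 or wild-type replicate 1), with means of -0.31 to -0.056 in the mutants and 0.051 to 0.27 in the wild types. The dopamine and serotonin neuron list had 1 fall of 7, Slc6a3, with means of -0.18 to -0.019 in the mutants and -0.0044 to 0.14 in the wild types. That call was lost with 5 of the 6 arrays left out in turn. The choroid plexus list had 1 fall of 8, Trpm3 (0 to 2 with 1 array left out, and 0 without Tdp2Δ1-3 replicate 2 or wild-type replicate 1 or 2), with means of -0.16 to 0.13 in the mutants and -0.13 to 0.063 in the wild types. A single call in a list of this size is to be read against the 4.13% of all rows called lower. Of 8 red-cell genes 2 rose, the embryonic globins Hbb-y by 3.79 and Hba-x by 1.44, and the list's means were 0.31 to 0.34 in the mutants and -0.40 to -0.32 in the wild types. The other 6 differences ran from -0.072 for Alas2 to 0.14 for Hbb-bh1, and the median of the list was 0.056.

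**Figure D4:**
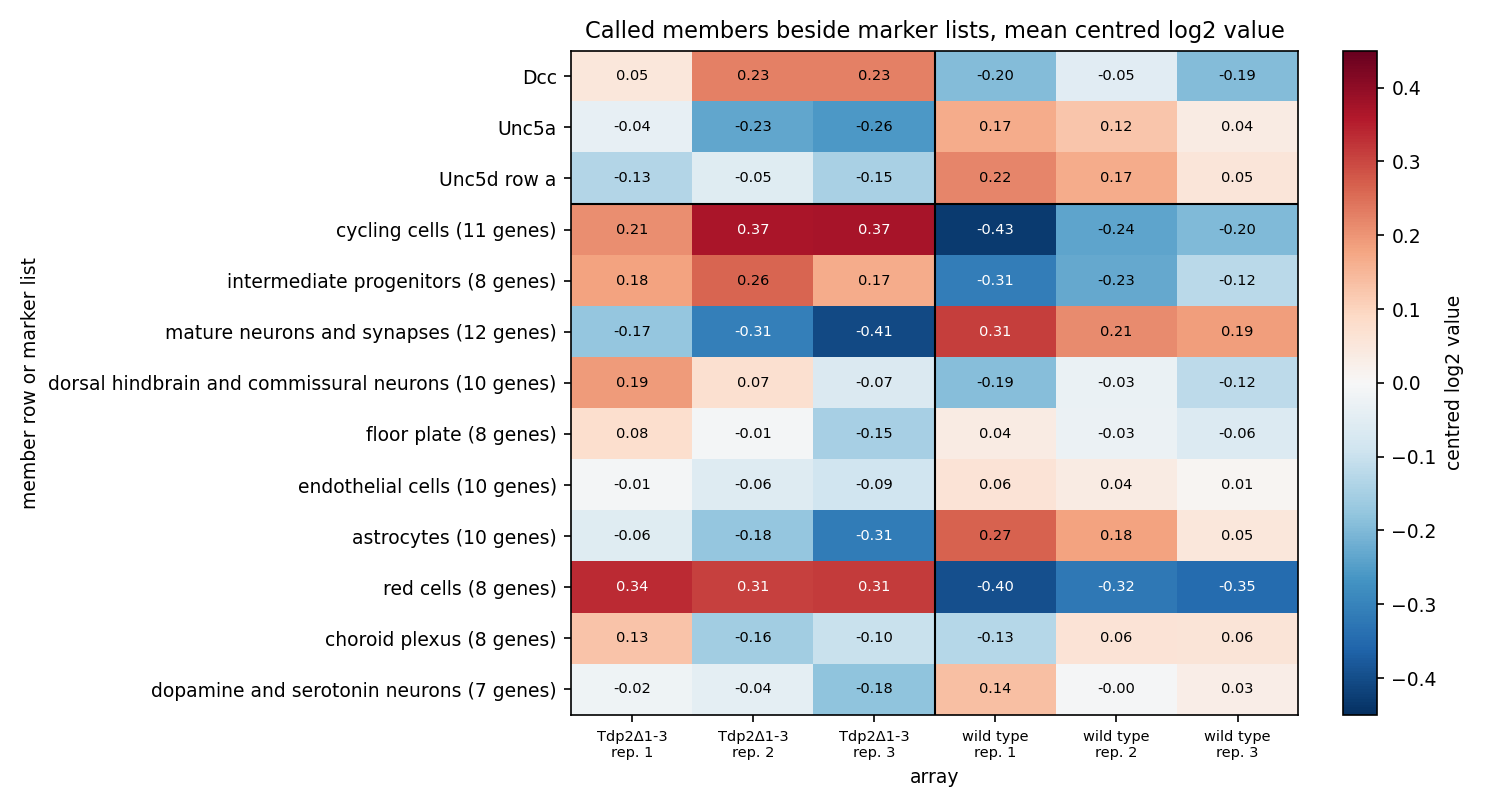
Centred log2 values of the 3 called member rows (above the line) and mean centred values of 10 marker lists (below it), for 3 Tdp2Δ1-3 arrays (left) and 3 wild-type arrays (right), in colour and as numbers. Dcc and the cycling-cell, progenitor and red-cell lists are positive in all 3 mutant arrays and negative in all 3 wild-type arrays. Unc5a, Unc5d row a and the mature neuron, astrocyte and endothelial lists are the reverse. The red-cell means rest mainly on Hbb-y and Hba-x.

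The genes whose 6 values were most like those of a called member are given as a description, by Pearson correlation over 6 arrays among 19938 genes. Such correlations carry the genotype difference with them. For Dcc they were Rcbtb1 (r = 0.999), Exo1 (0.995) and Gps2 (0.993), with differences of 0.23, 0.44 and 0.24. For Unc5a they were Aebp1 (r = 0.999), Syn2 (0.998) and Brinp1 (0.998), with differences of -0.37, -0.52 and -0.40. For Unc5d row a they were Kcnma1 (r = 0.998), Grik1 (0.997) and Dkk3 (0.996), with differences of -0.43, -0.49 and -0.13.

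**Figure D5:**
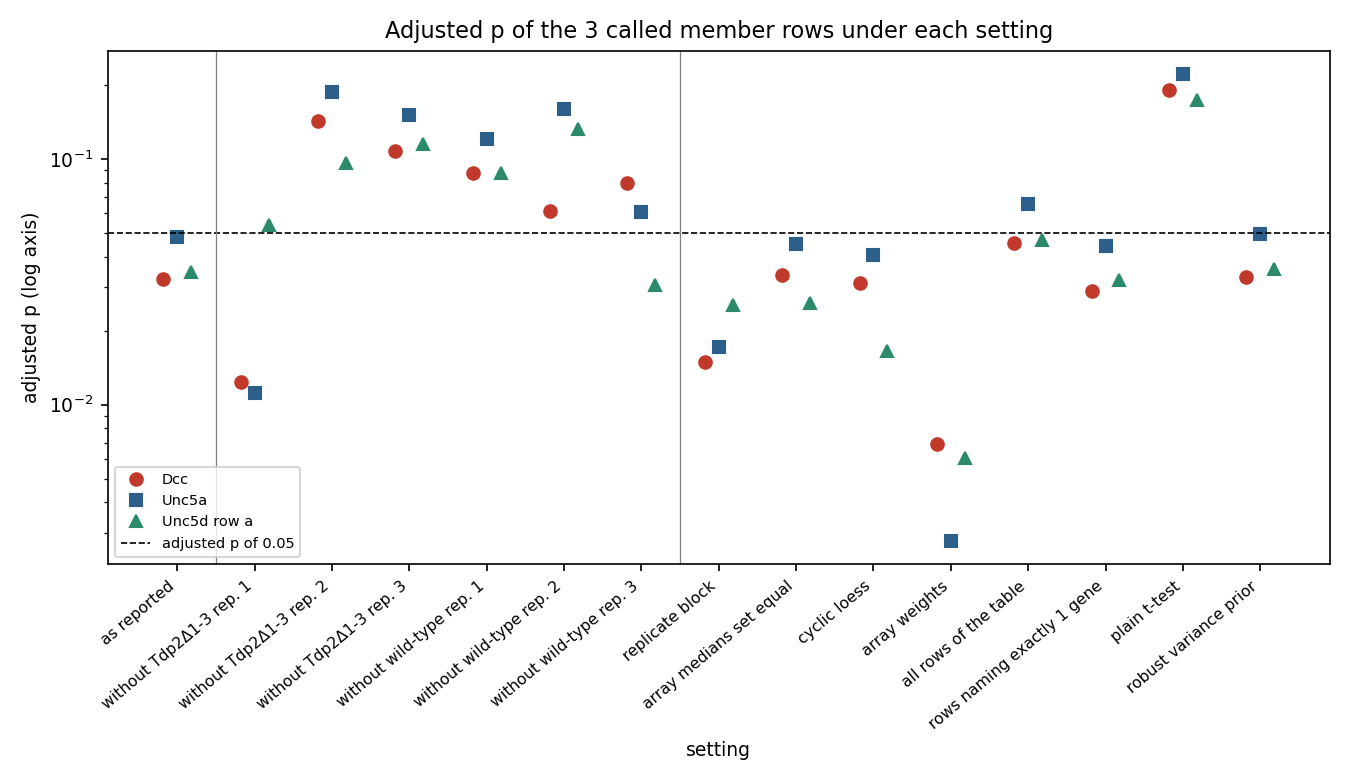
Adjusted p on a log axis (vertical) of Dcc, Unc5a and Unc5d row a as reported, with each array left out and under 8 other settings (horizontal axis), with a dashed line at 0.05. All 3 rows lie above the line without Tdp2Δ1-3 replicate 2 or 3, without wild-type replicate 1 or 2 and with variances taken row by row without limma's moderation, and Unc5a also with all rows of the table.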

How the data were processed

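The values were deposited by the authors as a single log2 table of 28856 rows and 6 arrays. Per the series text they were normalized with Robust Multi-Array Average, and per the submitters' processing notes Affymetrix Expression Console was used. The table names no log base. Every row had a median of 0 (tolerance 5e-07), which the labels do not mention, so levels are lost and no filter on low values could be made. Rows were named through the platform annotation: 21789 name 1 gene, 1621 several and 5446 none. Symbols were brought up to date by gene identifier through RefSeq (GRCm38.p6), where 21698 of the rows with 1 gene were found. Which genome build lies behind the array annotation could not be read from the labels or headers.

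The test of genotype was that of limma 3.58.1 under R 4.3.3 (lmFit and eBayes, two-sided, no covariate), with Benjamini-Hochberg adjustment over the 23410 rows naming at least 1 gene. The call was an adjusted p under 0.05 alone. Calls that also reach the series text's fold of 1.5 are counted separately. Standard errors and 95% intervals are those of the moderated fit. In gene lists each gene had 1 row, the one annotated with most accessions. Of the pathway list 3 genes were not analysed here. Named were all members, the called pathway genes, the pathway gene of smallest p in each role, the 3 genes most correlated with each called member row and, for contrast, further pathway and marker genes chosen after their values were seen (Slit1, Slit2, Slit3, Flrt3, Ntn4, Rgma, Draxin, Robo4, Trio, Fyn, Rac1, Cdc42, Srgap2, Ntn3, Alas2 and Hbb-bh1). Pax2, Olig3 and Atoh1 were also named after their values were seen. The members and lists were chosen with earlier results of these data known. The fit was also run on simulated data with independent noise in each array. Recovery was required there only for changes of 1.5-fold or more, which no member row reached. Sex, pairs and cell classes were not simulated, so that run does not bear on the member calls. The precision rests on 3 arrays per genotype. Other settings were a block on the replicate number, leaving out 1 array, equal array medians, cyclic loess, array weights, all rows, single-gene rows, a plain t-test and a robust prior. Figures used matplotlib 3.10.9.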

Additional observations from a re-analysis of the deposited data

How the results depend on the processing

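Direction was kept by every member row under all 14 alternatives, except that Ntn1, between -0.21 and 0.038 with 1 array left out, was 0.038 without Tdp2Δ1-3 replicate 3. Calls were less firm. With 1 array left out, between 0 and 1 member rows were called higher and between 0 and 1 lower, and pathway genes called lower numbered 1 to 15. Over all rows the higher calls then ranged from 32 to 862 and the lower calls from 113 to 1639, and with the 1.5-fold limit from 10 to 84 and from 50 to 198. The plain t-test gave 0 calls of every kind, with 1 member row higher and 4 lower at an unadjusted p under 0.05. Array weights gave 5 lower member rows, 3 higher and 20 lower pathway genes, and 2644 higher and 2781 lower rows. When every row entered the fit, 1 member row was lower, because Unc5a then had an adjusted p of 0.066 with more rows to adjust over.

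The replicate number as a block gave 904 higher and 1496 lower rows and 1 higher pathway gene, and the same 3 member calls. Deviations of same-numbered brains correlated at 0.21, 0.047 and 0.20, and those of unlike number at -0.22 to 0.057. The values of 0.21 and 0.20 lay above all of the latter. Tdp2Δ1-3 replicate 2 correlated slightly better with wild-type replicate 3 (0.057) than with replicate 2. The series text speaks of independent pairs of brains. The main fit did not take the numbers as pairs, and whether they mark the pairs was not settled. Cyclic loess shifted the median of all rows by -0.015 and equal array medians by -0.0087. With the 1.5-fold limit cyclic loess gave 57 higher and 82 lower rows, against 44 and 106 as reported. The cause of these changes was not tested.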
